A study of Mus musculus with 16 samples.

Results

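Neutrophils sorted from the spleen were compared with neutrophils sorted from the blood of specific pathogen free (SPF) C57BL/6 mice. The members are the libraries that the sample labels place in those 2 groups: 3 of SPF spleen (replicates 1, 2 and 4) and 2 of SPF blood (replicates 3 and 4), 5 of the 16 libraries in the series. The other libraries come from spleen (3) and blood (2) of germ-free (GF) C57BL/6 mice, which are raised without microbes, and from the lungs of SPF (3) and GF (3) mice. SPF mice carry a microbiota but are kept free of defined pathogens. All groups share the C57BL/6 background, and the labels name no treatment, transgene, age or sex for any of them. Cells were sorted on CD45, CD11b, Ly6G and DAPI, and their RNA was amplified with a kit made for very small inputs before sequencing. Each library is labelled as coming from a mouse, but nothing says that the libraries of a group came from different animals, and the p-values then reflect only how far apart the libraries of a group lie, a spread that may be technical.

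Neutrophils build their granules in sequence while they mature in the bone marrow: primary granules first, then secondary (specific) granules, then gelatinase granules. Transcripts of the secondary granule proteins peak in precursors and are largely shut down before the mature cell enters the blood. The spleen holds a pool of neutrophils in its red pulp and marginal zone, and in mice it also keeps some blood formation, while its red pulp macrophages clear worn red cells and platelets.

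Values are given as normalized levels, which are RNA-seq reads scaled by the authors to a common library size, with the constant offset in the deposited values taken off. The levels are not divided by transcript length, so each is compared only across libraries of the same gene. The spleen libraries held 104213, 640596 and 202341 reads and the blood libraries 2870559 and 3033941, so blood was 9.40 times deeper on average. One read was worth 7.62, 1.49 and 4.70 level units in the spleen libraries and 0.452 and 0.392 in the blood libraries. In spleen replicate 1, 36.9% of the 10296 listed genes had no read. Levels below are listed in the order spleen replicates 1, 2 and 4, then blood replicates 3 and 4. Spleen minus blood differences are on the scale log2(level + 5), where the change of a gene with a low level comes out smaller than its fold.

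The defining neutrophil markers were present in all 5 libraries. Ly6g, the antigen used for sorting, was at 114, 137 and 174 in spleen and 170.3 and 149 in blood. Its groups overlapped (log2 difference -0.18, SE 0.53, adjusted p = 0.91). S100a8 and S100a9, the subunits of calprotectin, had the low value of their spleen group in replicate 1: S100a9 was at 10054, 22324 and 25456 in spleen and 35710.0 and 30120.0 in blood, and neither gene passed the test. Mmp9, the gelatinase of the late granules, was at 9299, 8134 and 6734 in spleen and 8563 and 7698 in blood. The cytokine receptor gene Csf3r, through which G-CSF drives neutrophil production, was higher in spleen, at 10000.0, 8841 and 7721 in spleen and 4844 and 5930.1 in blood, with a log2 difference of 0.72 (SE 0.18, adjusted p = 0.019). The chemokine receptor Cxcr2, which draws neutrophils out of the marrow and toward inflamed tissue, was lower in spleen, at 3437, 4467 and 4398 in spleen and 7877 and 6484 in blood, with a log2 difference of -0.81 (SE 0.19, adjusted p = 0.013). The direction of Cxcr2 turned to 0.054 under quantile scaling. In these bulk samples, fewer cells of a type and less RNA per cell cannot be told apart.

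Of 8299 genes tested with limma, 444 (5.35%) differed between spleen and blood at an adjusted p below 0.05, 128 of them higher (1.54%) and 316 lower (3.81%) in spleen. The median difference of all genes was -0.12. List counts below stand beside these shares of all genes, 1.54% higher and 3.81% lower. In the fit limited to genes with a mean level of at least 50, 165 of 2478 were higher and 425 lower. The split depended on the scaling: quantile scaling gave 185 higher and 140 lower, median-ratio scaling 182 and 264, the deposited values with their offset kept 253 and 333, and weights from the read depth 577 and 498. The median of all genes moved by 0.15 under quantile scaling, by 0.21 with the offset kept and by 0.22 with voom. Without blood replicate 3 only 27 genes were called, without blood replicate 4 198, and without spleen replicate 1 284. With only the 5 libraries of the contrast in the fit, and so a spread estimated from them alone, 19 genes were called. Levels of the 5 libraries did not overlap between the groups for 36.0% of all genes tested. The groups were without overlap in all 128 higher and all 316 lower calls. Non-overlap given below for a called gene is therefore no added support for its call.

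**Figure D1:**
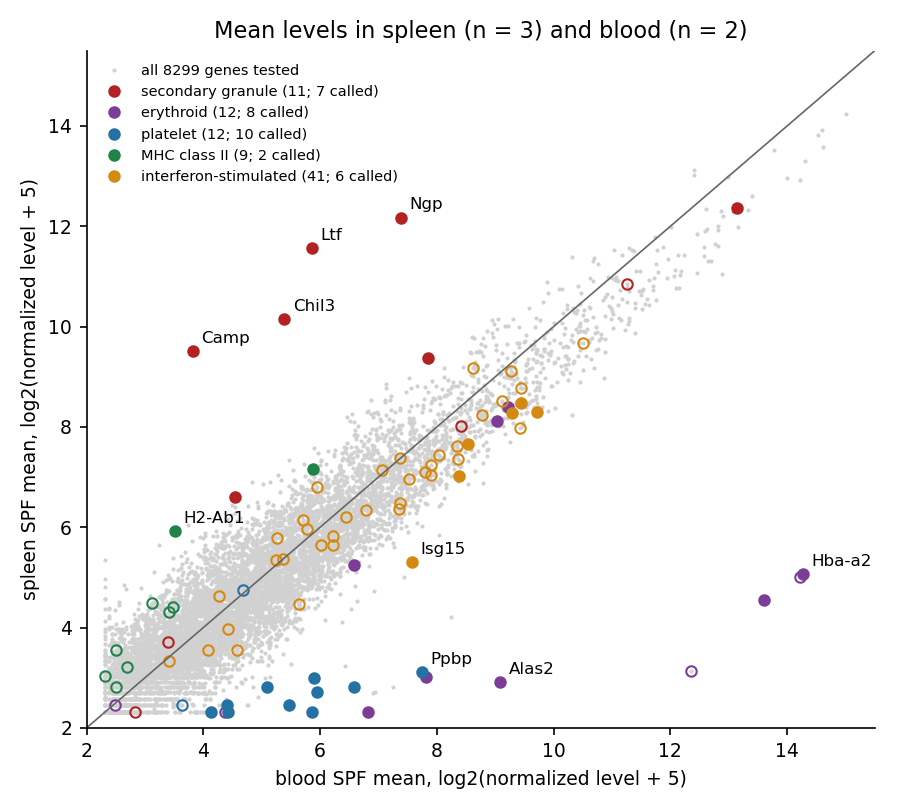
Mean level of each of the 8299 genes in blood (n = 2, x axis) and spleen (n = 3, y axis), both as log2(normalized level + 5), with filled circles for called members of 5 gene lists and open circles for members that were not called. Ltf, Camp, Ngp and Chil3 lie far above the line of equality, and most of the erythroid and platelet genes lie far below it.

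Secondary granule genes held the largest increases in spleen. Of 11 listed genes, 6 were higher and 1 was lower, with a median difference of 1.53 against -0.12 for all genes. The 4 largest increases among all called genes with at least 10 reads in each spleen library were of this list, and their groups did not overlap: Ltf (lactoferrin, which binds iron), Camp (the cathelicidin antimicrobial peptide), Ngp (neutrophilic granule protein) and Chil3 (the chitinase-like protein Ym1). Ltf (chr9:111019271-111042767, plus strand), Ngp (chr9:110419747-110423012, plus strand) and Camp (chr9:109847379-109849617, minus strand) lie near each other on mouse chromosome 9 (mm10), and Chil3 lies at chr3:106147554-106167564, minus strand. Their promoters are shown because these 4 genes had the largest increases; capitals mark the motif matches described after them, and each run goes 5′ to 3′ on the gene's strand from 150 bases before the RefSeq start to 5 bases after it (GRCm38.p6).
Ltf: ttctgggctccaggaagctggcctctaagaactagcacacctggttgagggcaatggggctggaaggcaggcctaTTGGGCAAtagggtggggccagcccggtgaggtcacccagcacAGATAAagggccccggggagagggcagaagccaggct
Camp: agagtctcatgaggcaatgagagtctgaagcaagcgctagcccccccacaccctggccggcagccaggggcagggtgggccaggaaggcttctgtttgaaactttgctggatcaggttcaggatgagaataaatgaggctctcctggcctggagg
Ngp: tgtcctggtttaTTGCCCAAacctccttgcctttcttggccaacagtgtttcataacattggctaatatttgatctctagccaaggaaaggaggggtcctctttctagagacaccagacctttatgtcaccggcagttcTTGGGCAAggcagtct
Chil3: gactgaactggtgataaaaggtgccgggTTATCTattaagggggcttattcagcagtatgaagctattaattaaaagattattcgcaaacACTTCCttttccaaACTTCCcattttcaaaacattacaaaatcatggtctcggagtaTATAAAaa
The windows are chr9:111019142-111019296 for Ltf, chr9:109849452-109849606 for Camp, chr9:110419658-110419812 for Ngp and chr3:106167560-106167714 for Chil3. Both strands of the 300-base window from 250 bases before to 50 bases after each start were searched for the C/EBP motif TTGCNNAA (TTNNGCAA on the other strand), the PU.1 motif GGAAGT, the GATA motif AGATAA and the TATA box TATAAA, and no match shown overlaps another. C/EBP factors and PU.1 are regulators of granulocyte genes. Ltf held 1 C/EBP match at -75 and 1 GATA match at -32, Ngp held C/EBP matches at -138 and -11, and Chil3 held PU.1 matches at -60 and -46, a GATA match at -122 and a TATA box at -3. Camp held no match. The RefSeq starts of Ltf, Ngp and Camp lie inside the gene spans given above, which come from another annotation. The whole Camp sequence shown lies inside its span, as does the Ngp match at -11. The C/EBP motif was in 3 of 10 secondary granule promoters in the table and in 8.38% of the 8160 promoters of genes tested. For PU.1 the figures were 3 of 10 and 31.2%, for GATA 2 of 10 and 6.26%, and for the TATA box 2 of 10 and 6.96%. A share above that of all genes tested was thus not particular to the C/EBP motif. These are letter matches, with no measurement of binding here.

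Ltf was at 2752, 3183 and 3168 in spleen and 9.48 and 96.8 in blood. The spleen values lay close together, and both blood values were low, with replicate 4 above replicate 3. The means were 3034 ± 245 (SD, n = 3) and 53.2 ± 61.8 (SD, n = 2), 57.1-fold apart, with a log2 difference of 6.30 (SE 0.96, adjusted p = 0.0050). Camp was at 373, 929 and 870.0 in spleen and 2.26 and 16.1 in blood, with a log2 difference of 5.77 (SE 0.71, adjusted p = 0.00061). Ngp was at 3156, 5211 and 5474 in spleen and 65.9 and 258 in blood, with a log2 difference of 5.04 (SE 0.90, adjusted p = 0.011). In all of these genes blood replicate 3 was the lowest library. Chil3 was at 899, 1436 and 1039 in spleen and 21.7 and 52.1 in blood, 30.5-fold higher in spleen by the means, with a log2 difference of 4.83 (SE 0.44, adjusted p = 9.6e-06). For comparison, Ltf in SPF lung neutrophils was at 177, 101 and 26.0, below all spleen libraries.

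Itgb2l and Cd177 rose less. Itgb2l, a beta integrin-like chain, was at 83.8, 86.4 and 108 in spleen and 18.97 and 17.6 in blood (log2 difference 2.06, SE 0.38, adjusted p = 0.0020). Cd177, a surface glycoprotein of neutrophils, was at 609.8, 718 and 644 in spleen and 222 and 227 in blood, 2.93-fold higher in spleen by the means (log2 difference 1.53, SE 0.25, adjusted p = 0.00064). Spleen and blood were each tight for Cd177 and far apart from each other. Hp (haptoglobin, which binds free hemoglobin) went the other way, at 4643, 5761 and 5315 in spleen and 10030.0 and 8114 in blood (log2 difference -0.79, SE 0.21, adjusted p = 0.028). Lcn2 (lipocalin 2, which captures bacterial siderophores) was at 1250.0, 2213 and 2055 in spleen and 2840.3 and 2017 in blood, with overlapping groups and an adjusted p of 0.65. Cebpe, which encodes the C/EBP factor needed for these granules, was at 15.2, 4.47 and 4.70 in spleen and 6.77 and 4.31 in blood, a few reads in each spleen library (adjusted p = 0.88).

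The calls for Chil3 and Cd177 were kept under all 33 alternative settings, that for Camp under 32 of 33, those for Ltf and Ngp under 31 of 33 each (lost for Ltf without the libraries under 250000 reads and without blood replicate 3) and that for Itgb2l under 29 of 33. Without the libraries under 250000 reads, which leaves 1 SPF spleen library, 3 of the 11 genes were higher, and without blood replicate 3 also 3. With each SPF library left out in turn, 3 to 6 were higher. The median difference without blood replicate 3 was 1.51, so the size moved little where the calls were lost.

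**Figure D2:**
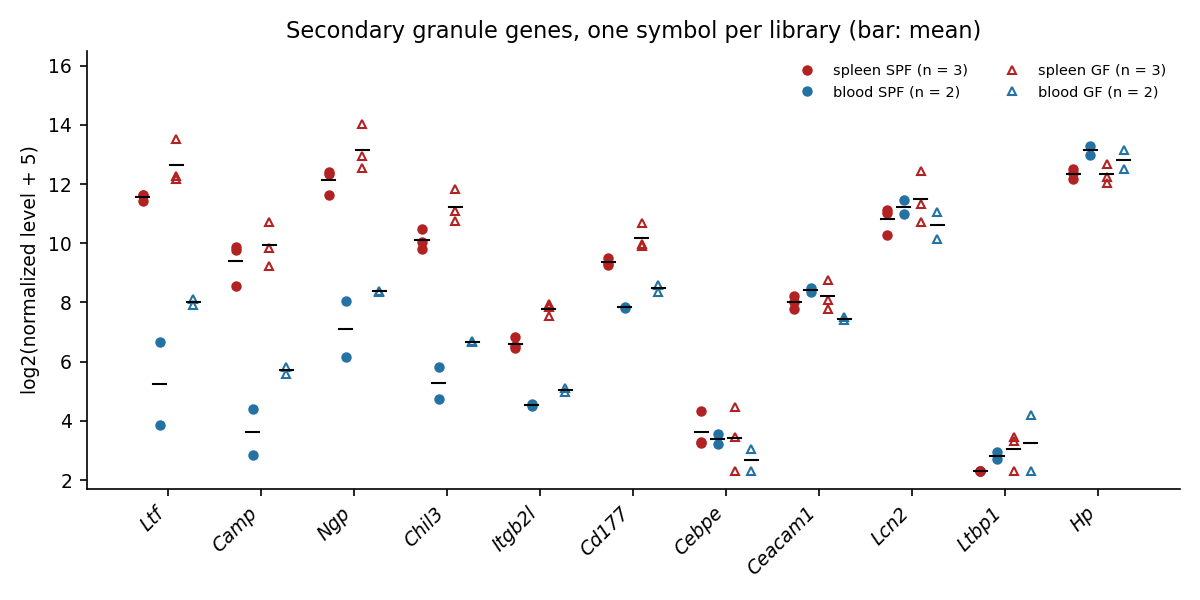
Levels of the 11 secondary granule genes as log2(normalized level + 5), 1 symbol per library and a bar at each group's mean, for SPF (filled circles) and GF (open triangles) spleen and blood. For Ltf, Camp, Ngp and Chil3 every spleen library lies above every blood library in both SPF and GF mice.

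The list of primary granule genes and the list of gelatinase granule and S100 genes had no member called higher in spleen. The second list is mixed, with members such as Arg2 that do not mark a granule stage. It therefore gives no clean contrast of gelatinase with secondary granules. Of 5 primary granule genes tested, which include lysozyme, none passed the test, with a median of -0.22. With the length trend removed, 1 (Lyz2) was higher and the median was 0.50, and 1 was higher with array quality weights and with voom weights. Genes such as those of myeloperoxidase and neutrophil elastase are not analysed here. Lyz2 (lysozyme) was at 11014, 13045 and 11338 in spleen and 16742 and 11164 in blood. Among 13 gelatinase granule and S100 genes, 3 were lower and none higher, with a median of -0.88. None was called without blood replicate 3, 1 was higher and 1 lower under quantile scaling, and 2 were higher and none lower with the length trend removed. Slpi, an inhibitor of neutrophil proteases, was at 2226, 3528 and 3616 in spleen and 7679 and 6732 in blood (log2 difference -1.24, SE 0.22, adjusted p = 0.0016). Arg2, the mitochondrial arginase, was at 410.5, 524 and 639 in spleen and 1387 and 900.4 in blood (log2 difference -1.11, SE 0.26, adjusted p = 0.012). S100a11 was at 1128, 3078 and 3405 in spleen and 6615 and 6119 in blood, with the low value in spleen replicate 1 (log2 difference -1.48, SE 0.39, adjusted p = 0.045). For all 3, both blood libraries lay above every spleen library. Mmp8, the neutrophil collagenase, was at 1936, 2294 and 1876 in spleen and 2481 and 1809 in blood and did not pass the test (adjusted p = 0.93).

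Genes of the NADPH oxidase, the enzyme that makes superoxide in phagosomes, split. Cybb, its catalytic subunit gp91phox, was at 587, 447 and 334 in spleen and 153 and 117 in blood, 3.37-fold higher in spleen (log2 difference 1.69, SE 0.31, adjusted p = 0.0021), with the highest value in spleen replicate 1. Its partner Cyba (p22phox) was at 663, 914 and 878 in spleen and 1758 and 1350.1 in blood (log2 difference -0.92, SE 0.25, adjusted p = 0.030). The cytosolic subunit Ncf4 (p40phox) was at 343, 399 and 395 in spleen and 725 and 649 in blood (log2 difference -0.85, SE 0.22, adjusted p = 0.025). Both were lower in spleen. Rac2, the GTPase that activates the complex, fell by 0.89 (adjusted p = 0.0048), and the Fc receptor genes Fcer1g and Fcgr3 had differences of -1.26 and -0.77 (adjusted p = 0.0044 and 0.038). In all, 1 of 16 genes of the oxidase and Fc receptor list was higher and 5 lower, but the split turned with the processing: 3 were higher and 1 lower under quantile scaling, 2 and 2 with the length trend removed, and 1 and 0 without blood replicate 3. Cybb has a longest annotated transcript of 4752 nt, Cyba of 744 nt and Fcer1g of 683 nt, and the relation of the differences to transcript length is given further on. The Cybb call was kept under 32 of 33 alternatives.

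Other genes among the 15 largest increases were Acly, Dcaf7, Susd6, Polg, Usp19, Arhgap27, Mtmr12, Mob1a and Sec24c. Acly (ATP citrate lyase, which makes cytosolic acetyl-CoA) was at 198, 146 and 127 in spleen and 28.9 and 49.8 in blood (log2 difference 1.89, SE 0.33, adjusted p = 0.0014). Mob1a, a co-activator of the Hippo pathway kinases, was at 580.0, 387 and 329 in spleen and 139 and 131 in blood (log2 difference 1.60, SE 0.27, adjusted p = 0.0010). The other 7 had differences between 1.56 and 1.85. In Dcaf7, Polg, Usp19, Arhgap27 and Sec24c, as in Acly and Mob1a, the value of spleen replicate 1 was the highest of the 3. Calls were kept under 25 of 33 alternatives for Susd6, 26 for Usp19, 28 for Dcaf7 and 31 for Acly and Mob1a, with the others between. Dcaf7, an adaptor of ubiquitin ligases, was at 213, 74.5 and 56.4 in spleen and 21.7 and 25.1 in blood. Sec24c, a coat protein of vesicles leaving the endoplasmic reticulum, was at 168, 106 and 79.9 in spleen and 28.9 and 41.9 in blood. Polg, the mitochondrial DNA polymerase, was at 76.2, 44.7 and 47.0 in spleen and 11.3 and 16.1 in blood.

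Among 23 lines of trafficking receptors and adhesion molecules, 3 were higher and 5 lower in spleen, with a median of -0.40. Under quantile scaling 3 were higher and none lower, with a median of 0.11, and without blood replicate 3 none was called. The higher ones were the integrin alpha chains Itgam and Itgal. Itgam (CD11b, also used for sorting) is listed on 2 overlapping annotation lines, whose reads the authors' counting may have divided, and both were called: the main line was at 1399.5, 1072 and 899 in spleen and 406 and 569 in blood (log2 difference 1.19, SE 0.24, adjusted p = 0.0046). Its call was kept under 29 of 33 alternatives and that of the other line under 15 of 33. Both lines are of the same gene, so they are not separate results. Itgal (the alpha chain of LFA-1) was at 1456, 939.8 and 757 in spleen and 424 and 572 in blood (log2 difference 1.03, SE 0.26, adjusted p = 0.019). The lower ones were Cxcr2, Cd47, C5ar1, Fpr2 and Selplg. C5ar1, the receptor for complement C5a, was at 2460.5, 2682 and 2698 in spleen and 4361 and 3618 in blood (log2 difference -0.60, SE 0.16, adjusted p = 0.030). Selplg, the ligand of P-selectin, was at 4281, 5118 and 5771 in spleen and 7661 and 7295 in blood (log2 difference -0.57, SE 0.16, adjusted p = 0.037). Both differences turned slightly positive under quantile scaling, to 0.11 for C5ar1 and 0.19 for Selplg. Cxcr4, the marrow retention receptor, was at 45.7, 98.3 and 65.9 in spleen and 165 and 129 in blood, lower in every spleen library but not past the threshold (adjusted p = 0.053).

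Of 26 pattern recognition genes, 1 was higher and 4 were lower, with a median of -0.14, near the -0.12 of all genes. Under quantile scaling 1 was higher and 1 lower, with a median of 0.12, and without blood replicate 3 none was called. Clec4d, a C-type lectin receptor for fungal and mycobacterial glycolipids, was at 244, 326 and 409 in spleen and 1229.8 and 833 in blood, 3.16-fold lower in spleen (log2 difference -1.65, SE 0.25, adjusted p = 0.00029). Cd14, the co-receptor for lipopolysaccharide, was at 38.1, 104 and 198 in spleen and 538 and 342 in blood (log2 difference -2.14, SE 0.53, adjusted p = 0.035), with spleen values that differed widely, while the groups of both genes did not overlap. Tlr13, a receptor for bacterial ribosomal RNA, was the higher gene, at 724, 457 and 545 in spleen and 235 and 309 in blood (log2 difference 1.05, SE 0.25, adjusted p = 0.015). Il1r2, the decoy receptor for interleukin 1 and a mark of mature neutrophils, was at 427, 517 and 785 in spleen and 2049 and 1267 in blood (log2 difference -1.52, SE 0.27, adjusted p = 0.0016). The interleukin itself, Il1b, was at 2817, 6318 and 6282 in spleen and 10489 and 10019 in blood (log2 difference -1.09, SE 0.27, adjusted p = 0.027), and the chemokine Ccl6 fell by 0.77 (adjusted p = 0.020). Those were the called genes among 18 chemokines and cytokines, and neither was called under quantile scaling or without blood replicate 3. Cxcl2 was at 0, 0 and 0 in spleen and 1.35 and 0.784 in blood, at most a few reads in any library.

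Of 26 immediate early genes, 5 were lower and none higher in spleen: Gadd45b, Ier2, Klf6, Zfp36l1 and Zfp36. None was called without blood replicate 3, 1 was lower without blood replicate 4 and 1 under quantile scaling, 2 were lower without any single GF lung library, and 3 were higher and 2 lower without spleen replicate 1. The calls for Gadd45b and Ier2 were kept under 27 of 33 and 23 of 33 alternatives, and those for Klf6, Zfp36 and Zfp36l1 under 14 of 33, 13 of 33 and 11 of 32. Gadd45b, a stress-induced gene, was at 53.4, 124 and 61.1 in spleen and 196 and 191 in blood (log2 difference -1.32, SE 0.28, adjusted p = 0.0056). Zfp36, whose product destabilizes cytokine mRNAs, was at 595, 552 and 484 in spleen and 941 and 782 in blood (log2 difference -0.66, SE 0.19, adjusted p = 0.047). Among 20 genes of NF-kB feedback and targets only Sod2 was called, lower in spleen (-1.59, adjusted p = 0.016). Of 20 genes of colony-stimulating factor signalling and survival only Csf3r was called. No gene of the glucocorticoid response list (10 tested) passed the test. Per1, the member of smallest p, was at 7.62, 5.96 and 0 in spleen and 21.7 and 18.8 in blood (adjusted p = 0.053), and Tsc22d3 (GILZ) was at 1113, 2379 and 4674 in spleen and 6606 and 5588 in blood (adjusted p = 0.10).

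Genes of antigen presentation by MHC class II were low in all libraries. Of 9 tested, 2 were called, both higher in spleen, with a list median of 0.93 (1.01 with genes at 0 in 1 group set to their bound). H2-Ab1, the beta chain of I-A, was at 61.0, 64.0 and 42.3 in spleen and 3.16 and 9.80 in blood, from 7 to 43 reads a library (log2 difference 2.45, SE 0.38, adjusted p = 0.00033). Cd74, the invariant chain, was at 107, 159 and 150.5 in spleen and 45.2 and 62.3 in blood (log2 difference 1.29, SE 0.32, adjusted p = 0.018). The summed level of the list was 221, 296 and 263 in spleen and 66.8 and 90.5 in blood. All spleen sums lay above the blood sums. Without blood replicate 3 neither gene was called, although the list median was 1.08.

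Markers of cells other than neutrophils that a spleen sort could hold were read beside them. Of 16 macrophage genes tested, 4 were higher (Csf1r, Vcam1, Fcna and Itgad) and Cd68 was lower, with a list median of 0.79, or 0.97 with genes at 0 in 1 group set to their bound. The summed level was 5381, 5513 and 4749.5 in spleen and 4425 and 4129.6 in blood. Most of it came from Slc40a1, Csf1r and Slc11a1, which were high in every library. Csf1r (the CSF-1 receptor) was at 999, 1019 and 790.0 in spleen and 406 and 571 in blood (log2 difference 0.94, SE 0.22, adjusted p = 0.011). Vcam1, an adhesion molecule of red pulp macrophages, was at 7.62, 44.7 and 14.1 in spleen and 0 and 2.74 in blood (log2 difference 1.88, SE 0.51, adjusted p = 0.030). Fcna (ficolin A) had 3, 13 and 1 reads in spleen and none in blood, at least 24.8-fold higher with the blood group set at 3 pooled reads (adjusted p = 0.031). Itgad (CD11d) was at 22.9, 5.94 and 18.8 in spleen and 0 and 0.396 in blood (adjusted p = 0.030). The complement genes C1qa, C1qb and C1qc had no read in blood and levels of 0 to 28.3 in spleen, and none was called. The defining genes Spic, Cd5l and Siglec1 were too low to test, at 0 to 7.62 in any of the 5 libraries. None of the 16 was called without blood replicate 3 or with all libraries thinned to the depth of the shallowest. The part of macrophage or B cell RNA in the MHC class II values was not tested.

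Of 11 B cell genes tested, none was called, with a median of 0.17, and the summed levels were 701, 806 and 593 in spleen and 715 and 663 in blood. The list median was 0.50 at equal depth and 1.03 without the libraries under 250000 reads. With the length trend removed it was 0.76, and 1 gene was higher. Of the 13 genes listed, 4 had no read in either blood library, and none lacked reads in all 3 spleen libraries. Ms4a1 (CD20) was at 0, 8.94 and 14.1 in spleen and 1.35 and 0 in blood. No gene was called among the T and NK cell (3 tested), dendritic cell (1), eosinophil, basophil and mast cell (4) or endothelium and stroma (6) lists. Of 4 monocyte genes tested only Ctss (cathepsin S), which neutrophils also express, was called, lower in spleen (-1.01, adjusted p = 0.032).

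Of 12 platelet genes tested, 10 were lower in spleen and none higher, with a median of -2.65 (-2.75 with genes at 0 in spleen set to their bound). The summed level was 22.9, 46.2 and 37.6 in spleen and 667 and 544 in blood, so both blood libraries stood far above all spleen libraries. Ppbp (the platelet chemokine CXCL7) was at 0, 1.49 and 9.40 in spleen and 257 and 160.3 in blood, 3 reads in all of spleen, a ratio of blood to spleen over pooled reads of 69.5 (95% interval 23.7 to 338), counting error only (log2 difference -4.75, SE 0.54, adjusted p = 9.6e-06). Pf4 (platelet factor 4) was at 0, 1.49 and 4.70 in spleen and 109 and 72.9 in blood (log2 difference -3.79, SE 0.50, adjusted p = 6.1e-05). Gng11, a G protein gamma subunit, had no read in spleen and 51.5 and 54.5 in blood, at least 17.9-fold lower with spleen set at 3 pooled reads (log2 difference -3.54, SE 0.47, adjusted p = 6.1e-05). In all 3 genes the lowest blood value was far above the highest spleen value. Itga2b, a subunit of the fibrinogen receptor, was at 0, 8.94 and 0 in spleen and 47.9 and 61.3 in blood (adjusted p = 0.00064). Gp9, of the receptor for von Willebrand factor, was at 0, 1.49 and 0 in spleen and 42.5 and 36.2 in blood (adjusted p = 0.00026).

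Tubb1 (the platelet beta tubulin) and Treml1 also had no read in the spleen libraries, with bounds of 5.57-fold and 4.22-fold, and Alox12 and Clec1b (CLEC-2) had 1 or 2 reads there. The 2 members not called were Itgb3, at 22.9, 28.3 and 14.1 in spleen and 11.3 and 29.8 in blood, and Vwf, at 0, 1.49 and 0 in spleen and 4.52 and 10.2 in blood. Outside the list, 4 more genes stood among the 15 largest decreases: Tsc22d1, Ctla2a (a close copy of Ctla2b, so its reads are uncertain), Myl9 (myosin light chain 9) and Clu (clusterin). Clu, which is also stored in platelet granules, was at 0, 4.47 and 0 in spleen and 142 and 86.6 in blood (log2 difference -4.23, SE 0.46, adjusted p = 7.9e-06). Tsc22d1, a transcription regulator, was at 0, 1.49 and 4.70 in spleen and 160.3 and 135 in blood (log2 difference -4.48, SE 0.48, adjusted p = 7.9e-06). Of the 15 largest decreases, the other 11 were 6 platelet and 5 erythroid genes of the lists. With each SPF library left out in turn, 6 to 10 of the 12 platelet genes were lower, fewest without blood replicate 3. With all libraries thinned to the depth of the shallowest, 5 were.

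Erythroid genes were lower in spleen by still larger amounts, with larger standard errors. Of 12 tested, 8 were lower, with a median of -4.67 (-5.03 with genes at 0 in spleen set to their bound). The summed level was 686, 783 and 696 in spleen and 45326 and 71727 in blood, which is 0.0731% to 0.0864% of all level in the spleen libraries and 3.50% and 6.03% in the blood libraries. Hba-a2 (alpha globin) was at 50.2, 29.9 and 4.94 in spleen and 15084 and 24585 in blood, 699.8-fold lower in spleen by the means (log2 difference -9.49, SE 2.20, adjusted p = 0.035). Hba-a1 was at 18.4, 13.3 and 23.3 in spleen and 9354 and 15436 in blood (log2 difference -9.03, SE 2.26, adjusted p = 0.047); the 2 genes are near-identical copies, so reads could be shared between them. The beta globin genes Hbb-bs and Hbb-bt had differences of -9.19 and -9.30 and just missed the threshold (adjusted p = 0.0505 for each).

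Alas2, the first enzyme of heme synthesis in red cell precursors, was at 7.62, 0 and 0 in spleen and 392 and 684 in blood, 1 read in all of spleen (log2 difference -6.26, SE 1.54, adjusted p = 0.043). Bpgm, which makes bisphosphoglycerate, a regulator of oxygen release, in red cells, was at 0, 4.47 and 4.70 in spleen and 186 and 255 in blood (log2 difference -4.85, SE 0.72, adjusted p = 0.00044). Fech (ferrochelatase), Bnip3l and Mkrn1 were also called, with differences between -1.33 and -0.83; Bnip3l was at 213, 287 and 319.8 in spleen and 535 and 504 in blood. The spread used by the test is shared by all 6 groups, and the GF spleen libraries had erythroid sums from 731 to 22859. The count of lower genes was 2 to 4 with 1 SPF spleen or blood library left out, fewest without either blood library, 11 without GF spleen replicate 1 and 2 under quantile scaling. The list median stayed between -4.89 and -4.34 under these settings. The Bpgm call was kept under 33 of 33 alternatives, but the other erythroid calls named here were less stable. Of 33 alternatives, 25 kept the call for Bnip3l, 23 for Mkrn1, 19 for Hba-a2, 17 for Fech, 14 for Alas2 and 10 for Hba-a1. The part of red cell and platelet RNA in the other differences was not tested.

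**Figure D3:**
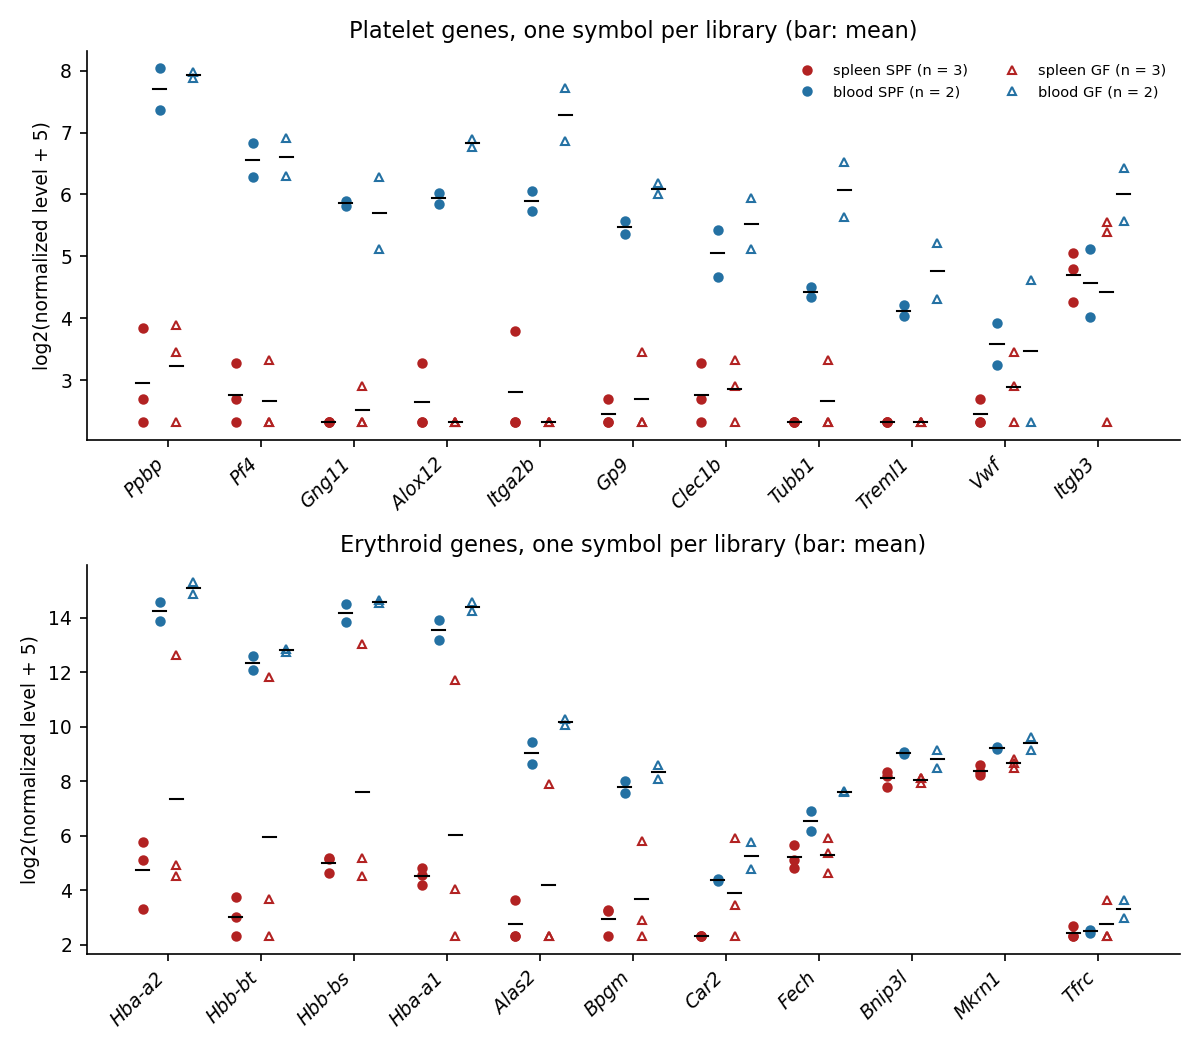
Levels of 11 of the platelet genes (top) and 11 of the erythroid genes (bottom) as log2(normalized level + 5), 1 symbol per library and a bar at each group's mean. In SPF mice (filled circles) both blood libraries lie above all 3 spleen libraries for every gene shown except Itgb3 and Tfrc, and 1 GF spleen library (open red triangles) has far higher globin levels than the other spleen libraries.

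Of 41 interferon-stimulated genes, which are induced by type I interferon and restrict viruses, 6 were lower in spleen and none higher, with a median of -0.71. Of all genes tested, 3.81% were lower. Under quantile scaling 1 gene of the list was higher and 3 were lower. Isg15, a ubiquitin-like modifier, was at 15.2, 46.2 and 42.3 in spleen and 178 and 194 in blood, 5.38-fold lower in spleen (log2 difference -2.38, SE 0.35, adjusted p = 0.00027). Both blood values exceeded every spleen value by a wide margin. Rtp4 was at 145, 243 and 541 in spleen and 897 and 769 in blood (log2 difference -1.62, SE 0.34, adjusted p = 0.0077). Isg20, an exonuclease, was at 76.2, 112 and 188 in spleen and 309 and 345 in blood (log2 difference -1.44, SE 0.32, adjusted p = 0.0076). Irf7, the transcription factor that amplifies interferon production, was at 213, 299 and 541 in spleen and 696 and 679 in blood (log2 difference -1.06, SE 0.30, adjusted p = 0.036). Rsad2 (viperin) and Oasl1 completed the 6, with differences of -1.14 and -0.91 (adjusted p = 0.025 and 0.034). In Rtp4, Isg20, Irf7 and Rsad2 spleen replicate 4 was the highest spleen library and replicate 1 the lowest. The summed level of the list was 5427, 5693 and 9291.5 in SPF spleen and 10613 and 11298 in SPF blood. It was 7071 to 7384 in GF blood and 7101 to 8667 in GF spleen, so SPF blood stood above both GF groups. That order was not particular to this list. Actin cytoskeleton sums were 98295 and 81097 in SPF blood, and at most 68648 in GF blood and 66055 in GF spleen. Without spleen replicate 4, 14 genes of the list were lower, without blood replicate 3 only 1, and without blood replicate 4 2.

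Called genes of antigen presentation by MHC class I were all lower in spleen. Of 20, 7 were lower and none higher, with a median of -0.79, where 3.81% of all genes tested were lower. The summed level of the list was 19242, 22364 and 31528 in SPF spleen and 44517 and 38707 in SPF blood. It was 23596 to 24970 in GF blood and 20205 to 21569 in GF spleen, so SPF blood stood above both GF groups. Here too the order was shared with other lists. Ribosomal protein sums were 6015 and 5520 in SPF blood, and at most 3858 in GF blood and 3758 in GF spleen. B2m (beta-2 microglobulin, the shared light chain) was at 1456, 2630.2 and 3503 in spleen and 7070.0 and 6269 in blood (log2 difference -1.48, SE 0.24, adjusted p = 0.00061). The heavy chain H2-K1 was at 984, 1262 and 2252 in spleen and 3209 and 2987 in blood (log2 difference -1.13, SE 0.26, adjusted p = 0.012). Spleen replicate 1 was lowest and replicate 4 highest of the spleen libraries in both genes. The immunoproteasome subunit Psmb9 was at 83.8, 152 and 146 in spleen and 304 and 312 in blood (log2 difference -1.29, SE 0.32, adjusted p = 0.019). H2-D1 was at 12616, 13791 and 20019 in spleen and 26780.0 and 22716 in blood (adjusted p = 0.033), and its difference became positive (0.35) under quantile scaling. H2-T23, Psmb8 and Psme2 had differences of -0.98, -0.89 and -1.22. The heavy chain genes are close copies of each other, so reads could be divided between them. Without blood replicate 3 or 4, 1 gene of the list was lower, 3 were without spleen replicate 1, and 3 under quantile scaling.

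Of 22 actin cytoskeleton genes, 2 were higher and 9 lower. Cfl1 (cofilin, which severs filaments) was at 642, 554 and 470.2 in spleen and 1528 and 1372 in blood (log2 difference -1.39, SE 0.25, adjusted p = 0.0016). Pfn1 (profilin) was at 1205, 1552 and 1652 in spleen and 3827 and 3035 in blood (log2 difference -1.22, SE 0.23, adjusted p = 0.0026). Tmsb4x (thymosin beta 4, which sequesters monomers) was at 4963, 8280.0 and 10073 in spleen and 20815 and 17505 in blood (log2 difference -1.36, SE 0.26, adjusted p = 0.0053). Msn (moesin) and Lcp1 (L-plastin) were higher, Msn at 3186, 2730.1 and 2055 in spleen and 1182 and 1363 in blood (log2 difference 1.04, SE 0.22, adjusted p = 0.0056). None of the 22 was called without blood replicate 3, and 3 were lower under quantile scaling. Among 19 glycolysis genes, 2 were higher (Slc2a3 and Pfkfb4) and 4 lower (Gapdh, Eno1, Aldoa and the lactate exporter Slc16a3), against 3 and 1 under quantile scaling and none without blood replicate 3. The glucose transporter Slc2a3 was at 1555, 1064 and 781 in spleen and 487 and 564 in blood (log2 difference 1.05, SE 0.25, adjusted p = 0.015). Gapdh was at 1410.1, 2319 and 2459 in spleen and 4426 and 4109 in blood (log2 difference -1.09, SE 0.25, adjusted p = 0.0097). The nuclear noncoding RNA Malat1 was at 1512, 2226 and 2634 in spleen and 8729.8 and 6360.2 in blood, 3.55-fold lower in spleen (log2 difference -1.85, SE 0.23, adjusted p = 3e-05), a call kept under 32 of 33 alternatives. The summed level of the 2 listed nuclear noncoding RNAs was 1984, 2556 and 2874 in SPF spleen and 8952 and 6657 in SPF blood. It was 1330 to 1978 in GF blood, 2406 to 3212 in GF spleen and 3302.5 to 3447 in SPF lung. The SPF blood libraries thus stood above all of these groups, and SPF spleen did not lie below GF blood.

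Most members of the ribosome and the respiratory chain did not pass the test, while their medians lay below 0. Of 78 cytosolic ribosomal protein genes 4 were lower and none higher, with a median of -0.98, and of 75 nuclear genes of the respiratory chain 7 were lower and none higher, with a median of -0.98. Of all genes tested, 3.81% were lower. Cox4i1, a cytochrome c oxidase subunit, was at 99.1, 234 and 202 in spleen and 445 and 379.9 in blood (log2 difference -1.27, SE 0.27, adjusted p = 0.0070). Rps9, of the small ribosomal subunit, was at 213, 366 and 414 in spleen and 796 and 819 in blood (log2 difference -1.33, SE 0.28, adjusted p = 0.0062). In both, spleen replicate 1 had the lowest level. Of 13 mitochondrially encoded genes, mt-Nd5, a subunit of complex I, was called: it was at 45.7, 38.7 and 51.7 in spleen and 18.97 and 9.40 in blood, with a list median of 0.20.

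The difference between spleen and blood followed the length of the transcript. Across 2444 protein-coding genes with a mean level of at least 50, Spearman's rho of the log2 difference with the longest annotated transcript was 0.522, as a description across genes of the same 5 libraries. With the genes in 5 bins of equal size by length, the shortest (415 to 1930 nt) had a median difference of -0.81, with 143 of 489 lower (29.2%) and 7 higher, and the longest a median of 0.22, with 31 higher and 11 lower (2.25%). In the 2 blood libraries the genes of the shortest bin stood 0.81 and 0.58 above the mean of all 16 libraries, and in spleen replicate 1 the median was -0.52, while in spleen replicates 2 and 4 it was 0.06 in each. Spleen replicate 1, the shallowest library, was thus lowest for short transcripts, as in the Cox4i1 and Rps9 levels. The part of this length trend in each result was not tested gene by gene, but all values were recomputed with a smooth trend on length taken out of each library, an alternative added after the data were seen.

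With the length trend taken out, 242 genes were called (2.92%), 122 higher (1.47%) and 120 lower (1.45%), and 80 of the 128 higher and 104 of the 316 lower calls were kept. All 6 higher secondary granule genes were kept, with Ltf at 6.49 and Camp at 7.07, as were 8 of the platelet and 5 of the erythroid genes, Malat1 (-2.10), Cybb (1.49), Itgal (0.80) and Cd177 (1.73). In the MHC class II list 3 genes were higher. The ribosomal protein and respiratory chain lists had no call and medians of 0.02 and 0.03. The interferon-stimulated list kept 2 calls (Rsad2 and Irf7, at -1.27 and -1.01), with Isg15 at -1.08 (adjusted p = 0.057), the MHC class I list had 2 (Psmb9, and H2-Q10, which was not called with the trend in), with B2m at -0.29 (adjusted p = 0.46), and the actin list 2 higher and 3 lower. S100a8 and S100a9 became higher in spleen (0.75 and 0.74, adjusted p = 0.035 and 0.0015), and 11 of 13 mitochondrially encoded genes did so too. Hp, S100a11, Fcer1g, Cyba and Tyrobp changed sign, and Tyrobp became higher (0.74, adjusted p = 0.040).

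**Figure D4:**
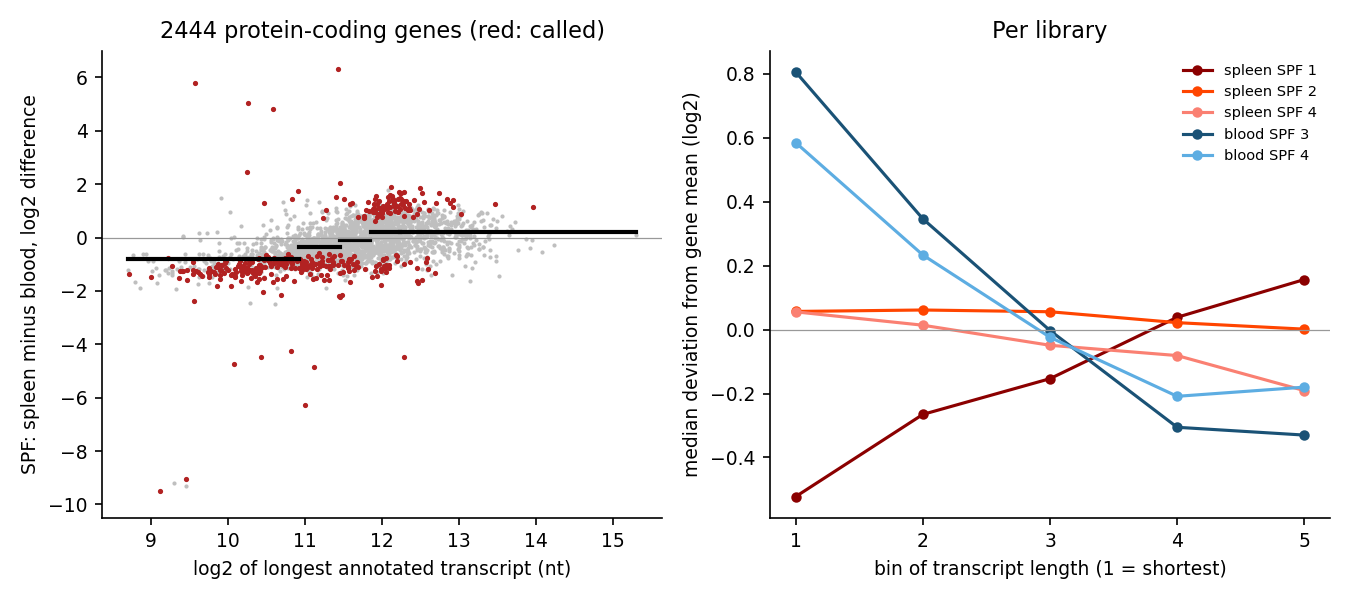
Left, spleen minus blood log2 difference of 2444 protein-coding genes against log2 of the longest annotated transcript, with called genes in red and black bars at the median of 5 equal bins of length. Right, median deviation of each bin from the gene means of all 16 libraries, 1 line per SPF library: the 2 blood lines start at 0.81 and 0.58 in the shortest bin and spleen replicate 1 starts at -0.52.

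The same contrast could be read in GF mice, whose spleen (n = 3) and blood (n = 2) libraries are not shared with the SPF contrast. Both contrasts came from the same fit of 16 libraries, so each used the same spread for a gene. The 2 sets of calls were therefore not fully independent. The GF contrast called 73 genes (0.880%), 34 higher (0.410%) and 39 lower (0.470%). Of the 128 genes higher in SPF spleen, 12 were also called higher in GF (9.38% of the SPF and 35.3% of the GF calls), and of the 316 lower ones 28 (8.86% and 71.8%); none was called in the opposite direction. The sign was the same in GF for 57.8% of the higher and 77.2% of the lower calls, where 50.8% and 49.2% of all genes had those signs. The 12 shared higher genes included Camp, Ngp, Chil3, Cd177, Itgb2l, Cybb, H2-Ab1, Cd74, Vcam1 and Fcna, and the 28 shared lower genes included all 10 called platelet genes with Clu, Tsc22d1, Myl9, Bpgm and Fech. Chil3 had a GF difference of 4.54 (adjusted p = 1.3e-05) and Ppbp of -4.70 (adjusted p = 1.2e-05). Ltf, at 4.63 in GF, missed the threshold there (adjusted p = 0.063).

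A test of the difference between the 2 contrasts called 47 genes (0.566%). No secondary granule, platelet, erythroid or MHC class II gene was among them, which does not show that their differences were equal. Malat1 was lower in spleen in SPF and 0.75 in GF, a difference of -2.60 (adjusted p = 0.00019). Isg15 differed by -2.45 (adjusted p = 0.039), with a GF difference of 0.07. Cfl1 and Gabarap, which acts in autophagosome formation, differed by -2.00 and -1.91 (adjusted p = 0.012 and 0.0026); both were lower in SPF spleen and had positive GF differences. Medians of the interferon-stimulated and MHC class I lists were 0.13 and 0.11 in GF against -0.71 and -0.79 in SPF, while Isg15 was the only one of these 41 and 20 genes called in the test of the difference. The count of 47 rested on single libraries: it was 2 without SPF blood replicate 3, 179 without SPF spleen replicate 1 and 237 without GF blood replicate 2, and with the length trend taken out it was 71.

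**Figure D5:**
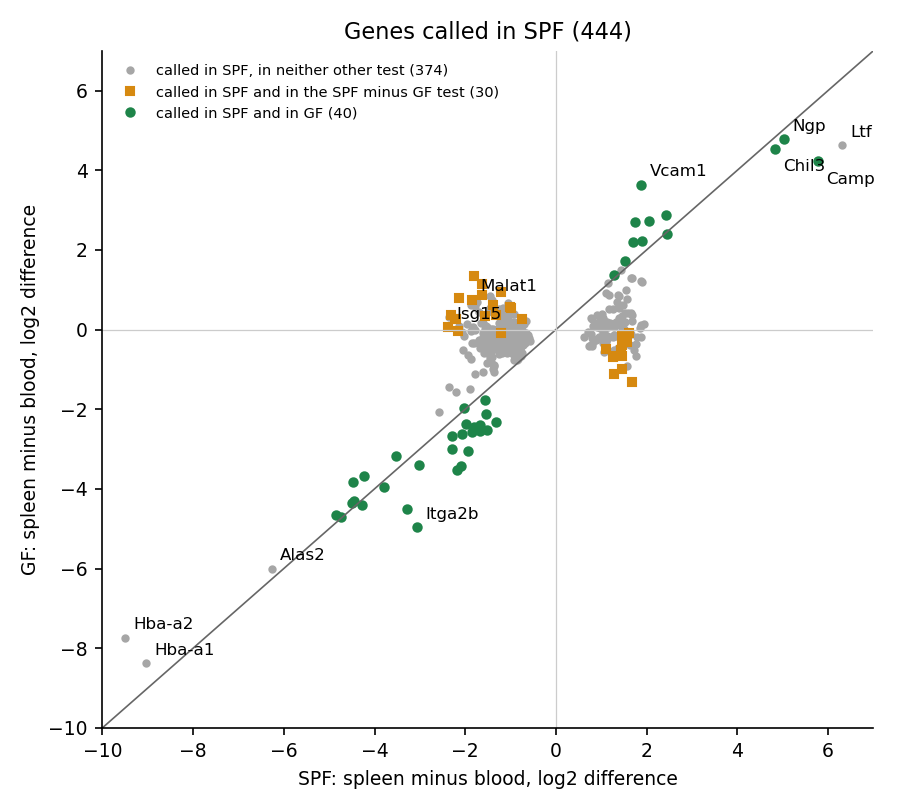
Spleen minus blood log2 difference in SPF (x axis) and GF (y axis) mice for the 444 genes called in SPF, with the line of equality. The 40 genes also called in GF (green) lie on the same side of 0 in both contrasts, and the 30 called in the test of SPF against GF (orange squares) lie near 0 or on its other side in GF.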

How the data were processed

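RNA-seq of sorted neutrophils was compared over 16 libraries, grouped by their labels. The authors deposited a normalized signal for 10296 genes; per the submitters' processing notes CASAVA, RSEM 1.3.1, limma and the mm10 build were used, while the aligner, annotation and scaling are not given in the sources used here. From the values, each is a read count plus an offset of 0.5 reads, scaled to a common effective library size; the offset was taken off here to give the normalized level.

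Genes whose deposited value reached 10 in 2 or more libraries (8299) were tested with limma 3.58.1 in R 4.3.3 on log2(level + 5), with all 16 libraries as 6 group means, a trended, robust prior and Benjamini-Hochberg adjustment at 0.05. The fit was tested on simulated data. Positions and transcript lengths are from GENCODE M21, which held 10275 of the IDs, and promoters from RefSeq.

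Named genes were the 15 largest called differences in each direction with a mean level of at least 10, no overlap and at least 10 reads in each library of the higher group, up to 6 genes of smallest p in each of 33 lists, markers, and the 5 smallest p of the SPF against GF test. The members, lists and rule were chosen with earlier results of these data known. The values of some genes are not reported here. Same-numbered libraries did not deviate together, so no pairing was used, although groups of 2 or 3 libraries cannot exclude it. With 3 against 2 libraries an exact permutation test cannot reach 0.05. Depth ranged from 104213 to 3033941 reads in the SPF libraries and limits the spleen values. Alternatives covered the pseudocount, offset, filter, scaling, weights, depth, libraries and transcript length.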

Additional observations from a re-analysis of the deposited data

Results flagged for a closer look

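The spleen minus blood difference itself differed between SPF and GF mice, by a limma test of the difference of differences, in 47 genes. Among the genes named here, the difference was larger in SPF by 1.69 for Mob1a, 1.88 for Sec24c, 3.44 for Cmas (which activates sialic acid), 2.39 for Abtb2 and 1.94 for Hiatl1. It was more negative in SPF for Isg15 (-2.45), Ly6c2 (-2.00), Slc16a3 (-1.59), Atp6v0d1 (-2.79), Cfl1 (-2.00), Capg (-1.92), Vasp (-1.96), Malat1 (-2.60) and Gabarap (-1.91), all on the log2 scale. Capg and Vasp, which act on actin filament ends, were called higher in GF spleen. Leaving out single libraries moved the count from 2 to 237, and the GF blood group held 1 library of 2555255 and 1 of 132798 reads. The part of that depth gap was not tested.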

How the results depend on the processing

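For SPF, 88 genes were called without a trended or robust prior, 1160 with array quality weights, 1075 with voom weights, 19 with only the 5 libraries of the contrast, 273 at equal depth, 242 with the length trend removed and 27 to 554 with 1 library left out, against 444. For GF, 34 were called at a mean level of at least 50, 40 with only its own libraries, 22 at equal depth, 113 without the libraries under 250000 reads and 36 to 256 with 1 left out, against 73. For the difference between SPF and GF, the count of 47 became 4 with a pseudocount of 1, 28 with no filter, 76 with median-ratio scaling, 0 without the trended or robust prior, 142 with array weights, 139 with voom weights, 3 with only the 10 libraries, 23 at equal depth, 95 without the libraries under 250000 reads, 71 with the length trend removed and 2 to 237 with 1 left out. The replicate block gave 42 for SPF, 46 for GF and 0 for the difference. Same-numbered libraries correlated at -0.087 to 0.039 over 9 pairs, which shows no pairing. With deviations taken from means of 2 or 3 libraries, this check cannot exclude that the samples were paired. At the 2 counts of 0 by limma, 1066 genes (no trended or robust prior) and 816 (block) had an unadjusted p under 0.05.

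Over 125 named genes and 33 alternatives, 3109 of 4101 values kept direction and call, 973 kept the direction and lost the call, 2 gained a call and 17 reversed. With the length trend removed these were Hp 0.025, S100a11 0.14, Fcer1g 0.13, Cyba 0.39, Fcgr3 0.041, Trem3 0.11, Tyrobp 0.74, Arpc2 0.086, Cox4i1 0.020, Ndufb9 0.13 and Sdhd 0.04. With quantile scaling they were Cxcr2 0.054, C5ar1 0.11, Selplg 0.19, Tyrobp 0.012, H2-D1 0.35 and Coro1a 0.29. The cause of the other changes was not tested. The length trend and the leaving out of the 2 shallowest libraries were added after the data were seen. In the shallowest spleen library 1 read is worth 7.62 level units, so differences of genes below about that level were not detectable there.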
